A study of Rattus norvegicus with 6 samples.

Results

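Chemokines are small secreted proteins that draw leukocytes towards a tissue, and glial cells of the central nervous system can release them. Transcripts of 5 chemokine genes were followed in rat oligodendrocyte precursor cells, the proliferating cells that later differentiate and wrap axons with myelin. The genes were chosen by their Ensembl rat gene identifiers, and all 5 had a row among the 20174 features of the array. Ccl5 (ENSRNOG00000010906), Cxcl11 (ENSRNOG00000022298) and Cxcl10 (ENSRNOG00000022256) were taken as interferon-driven. Ccl2 (ENSRNOG00000007159) and Cxcl1 (ENSRNOG00000002802) were taken as NF-kB-driven. The choice was made with the difference between the shRNA groups known, since Ccl5 and Cxcl11 are on the list of lowered transcripts that the study drew from these same arrays. Differences between the groups are therefore given as values without a test.

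The cells came from embryonic day 15 rat brains and were grown in modified Raff medium. They received an shRNA against VCAM1, an adhesion molecule with immunoglobulin-like domains, or a control shRNA against firefly luciferase, which rat cells lack, and RNA was taken after 20 h. Each of 6 cultures was hybridized to a one-colour array of its own, giving 3 arrays per group, numbered 1 to 3 in both. The study's methods describe cortical cultures of Sprague-Dawley rats infected with retrovirus in medium with PDGF and FGF, and do not say which vector was used for the arrays. Of the study's VCAM1 shRNAs its text names VCAM1#1 for the later experiments, and the labels name none for the arrays. An effect of lowering VCAM1 and one of the VCAM1 shRNA itself cannot be told apart. The arrays give no gene names, and besides the 5 chemokines no identifier was tied to a gene here. Neither the level of Vcam1 nor markers of precursor cells, microglia or astrocytes could thus be read, and the treated group is called labelled VCAM1 shRNA. As cultures can hold other glia, fewer cells of a type and less RNA per cell cannot be told apart.

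Interferons act through STAT and IRF factors, which bind interferon-stimulated response elements (ISRE) and gamma-activated sites (GAS) in front of their target genes. Inflammatory cytokines such as TNF and interleukin-1 act through NF-kB, which binds kB sites. Cxcl10 and Cxcl11 are textbook interferon targets and are ligands of the receptor Cxcr3 on activated T cells. Ccl5 is induced by interferon and by NF-kB. Ccl2 recruits monocytes through Ccr2 and Cxcl1 recruits neutrophils through Cxcr2, and both are classical NF-kB targets. The classes overlap, since Cxcl10 also has kB sites and Ccl2 also responds to interferon.

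The promoters are shown because the classes are named after the factors that bind there. RefSeq promoter sequences (build GRCr8) were at hand for 3 of the 5 genes, namely Cxcl11 (chr14:15973478-15973727, plus strand), Cxcl10 (chr14:15988816-15989065, plus strand) and Cxcl1 (chr14:17479322-17479571, minus strand). Each run is the 250 bases before the annotated start of the gene, 5′ to 3′ on the gene's strand, and capitals mark matches on either strand to the ISRE core GAAANNGAAA, the GAS letters TTCNNNGAA or the kB consensus.
Cxcl11: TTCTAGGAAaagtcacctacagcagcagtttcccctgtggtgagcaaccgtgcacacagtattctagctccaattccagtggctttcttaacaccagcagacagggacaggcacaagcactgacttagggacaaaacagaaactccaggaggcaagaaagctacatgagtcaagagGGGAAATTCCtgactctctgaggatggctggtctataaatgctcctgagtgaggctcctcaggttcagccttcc
Cxcl10: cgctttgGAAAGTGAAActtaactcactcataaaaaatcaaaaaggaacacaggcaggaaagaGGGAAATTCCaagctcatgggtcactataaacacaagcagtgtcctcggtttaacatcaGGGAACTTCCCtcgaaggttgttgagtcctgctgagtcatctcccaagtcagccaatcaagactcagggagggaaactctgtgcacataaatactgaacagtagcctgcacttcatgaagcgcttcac
Cxcl1: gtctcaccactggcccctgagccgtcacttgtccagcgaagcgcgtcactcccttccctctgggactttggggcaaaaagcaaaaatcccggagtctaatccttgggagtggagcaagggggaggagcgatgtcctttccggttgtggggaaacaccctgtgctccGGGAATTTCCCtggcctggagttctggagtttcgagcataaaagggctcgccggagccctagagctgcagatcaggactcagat

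In Cxcl10 the first capitals are an ISRE core, GAAAGTGAAA, which begins 243 bases before the start. Its other capitals are kB matches beginning 187 and 128 bases before the start, the latter overlapped by a match on the opposite strand. In Cxcl11 the window opens with a GAS match and holds a kB match beginning 74 bases before the start. Its kB letters, GGGAAATTCC, are the same as those of the farther kB match in Cxcl10. The Cxcl1 window has a kB stretch beginning 84 bases before the start, read on both strands, and no match to ISRE or GAS letters. Of 33469 promoters of this length, 3.41% hold the ISRE core, 7.67% the GAS letters and 6.33% the kB consensus. All 3 promoters shown hold a kB match, and 1 holds the ISRE core. In the gene table Cxcl11 and Cxcl10 are direct neighbours, with Cxcl9, another Cxcr3 ligand, beside Cxcl10, and Cxcl1 is next to Cxcl2.

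All 5 chemokine probes were detected on all 6 arrays. The normalized signal is the spot brightness above the blank spots, scaled so that the median of the detected features of an array is 25. Ccl2 was among the 29 brightest features on every array, and Cxcl1 among the 177 brightest. Ccl5 was brighter than between 92.9% and 96.6% of the detected features, Cxcl10 than between 95.1% and 97.3%, and Cxcl11 than between 84.4% and 91.5%. Probes differ in how strongly they bind, so these ranks do not order the genes by RNA amount.

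Cxcl11 had a signal of 362.5, 486.5 and 424.0 on control arrays 1, 2 and 3, while 219.9, 291.3 and 214.1 were measured on the arrays labelled VCAM1 shRNA with the same numbers. The lowest control array lay above the highest array labelled VCAM1 shRNA. The means were 424.3 ± 62.0 and 241.7 ± 43.0 (SD, n = 3 each), a log2 fold change of -0.82 (standard error 0.24 in limma). Ccl5 gave 960.0, 1265 and 1064 on the control arrays and 657.4, 786.7 and 511.3 on the arrays labelled VCAM1 shRNA, again with no overlap of the groups. Its means were 1096 ± 155 and 651.8 ± 137.8 (SD, n = 3 each), a log2 fold change of -0.76 (standard error 0.25). Both signals were thus lower by about the same factor, to 56.8% of the control level for Cxcl11 and 58.9% for Ccl5.

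Cxcl10 gave 1089, 1577 and 1205 on the control arrays, against 859.1, 1277 and 758.3 in the other group. The groups overlapped, because array 2 labelled VCAM1 shRNA was above control arrays 1 and 3. The means of 1290 ± 255 and 964.8 ± 275.2 (SD, n = 3 each) gave a log2 fold change of -0.44 (standard error 0.28). Cxcl10 thus differed less than its neighbour Cxcl11, at 73.8% of the control level.

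Cxcl1, the neutrophil chemokine, gave 4033, 5657 and 4960 on the control arrays and 3356, 4560 and 3590 on the arrays labelled VCAM1 shRNA. Array 2 labelled VCAM1 shRNA lay above control array 1, so the groups overlapped. The means of 4883 ± 815 and 3835 ± 638 (SD, n = 3 each) gave a log2 fold change of -0.35 (standard error 0.24). Ccl2, the monocyte chemokine, gave 11748, 13364 and 9382 on the control arrays and 10864, 12105 and 7536 on the arrays labelled VCAM1 shRNA. Control array 3 was below arrays 1 and 2 labelled VCAM1 shRNA, the widest overlap of the 5 genes. The means of 11498 ± 2003 and 10168 ± 2363 (SD, n = 3 each) gave Ccl2 a log2 fold change of -0.19 (standard error 0.27), a difference smaller than the spread within either group.

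**Figure D1:**
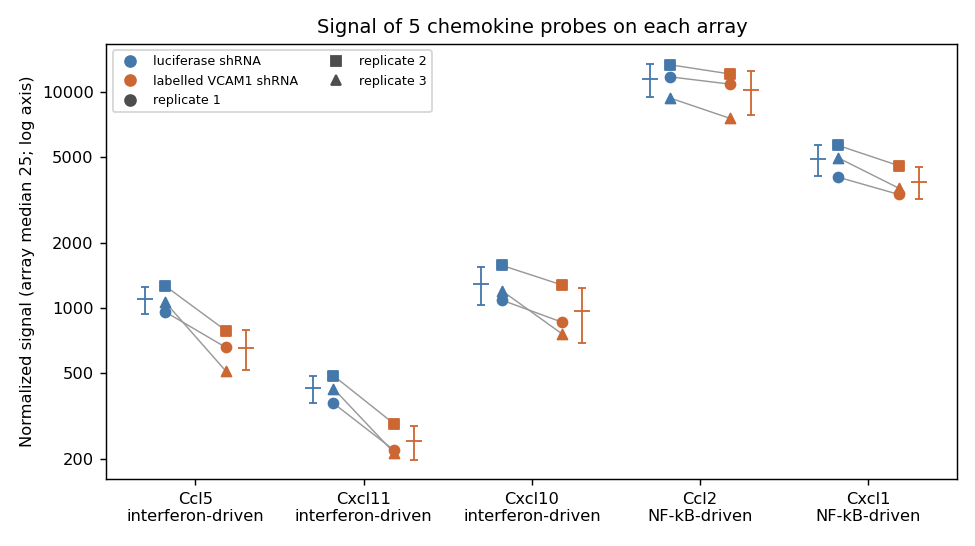
Normalized signal of the 5 chemokine probes (log axis) on the control arrays (blue) and the arrays labelled VCAM1 shRNA (orange); lines join arrays of the same number, and bars show mean and SD (n = 3). All 15 lines run downwards, and the 2 groups of points are apart only for Ccl5 and Cxcl11.

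Groups without overlap, with the lower signals on the arrays labelled VCAM1 shRNA, were found for 2 of the 5 genes, against 2.06% of the 16141 features tested (those detected on at least 3 arrays) and 3.94% of the 2718 with a mean signal above 200. Signals were lower in each of the 3 same-numbered pairs for 5 of the 5, against 7.04% of the features and 10.1% of those above 200. As the genes were chosen with this difference known, nothing is read from these shares. Ordered from the most lowered feature, Cxcl11 was number 50, Ccl5 number 59, Cxcl10 number 360, Cxcl1 number 630 and Ccl2 number 1804. Among the 2718 features with a mean signal above 200, where all 5 genes lie, Cxcl11 was number 2, Ccl5 number 5, Cxcl10 number 47, Cxcl1 number 83 and Ccl2 number 248. With Benjamini-Hochberg adjustment in limma, 0 of the 16141 features passed 0.05 (0%), the 5 genes included. Without adjustment 284 features (1.76%) did. These counts and the standard errors above come from a fit that ignores the numbers of the arrays. With the numbers as a block, 20 features passed with adjustment, 0 of the 5 genes among them, and 876 without. The comparison that the study's statistics section names, run on unlogged signals, gave 0 and 353. The median log2 fold change of all features tested was 0.064, and that of the 5 genes was -0.44.

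**Figure D2:**
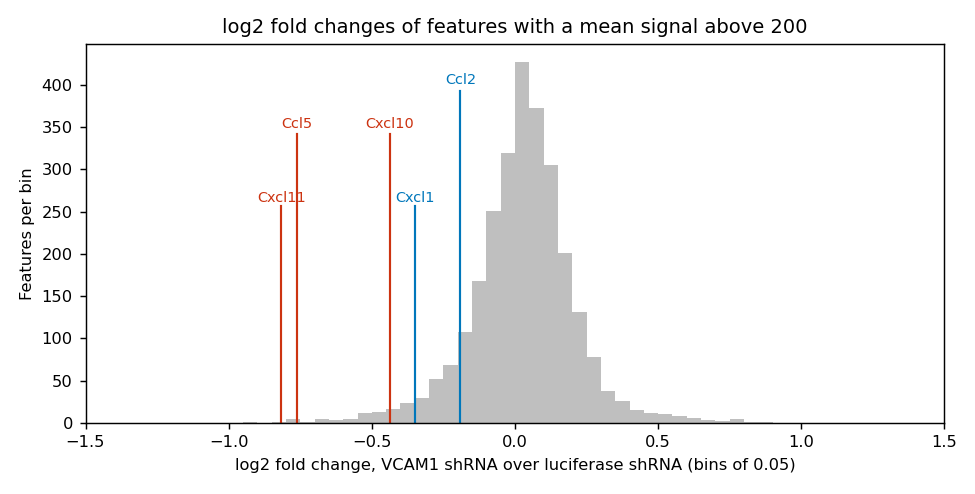
Number of features (y axis) per bin of log2 fold change (x axis) for the 2718 features with a mean signal above 200; lines mark the interferon-driven (red) and NF-kB-driven (blue) genes. Cxcl11 at -0.82 and Ccl5 at -0.76 lie in the far left tail, Cxcl10 and Cxcl1 on its slope and Ccl2, at -0.19, within the bulk of the features.

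Arrays of the same number deviated together, so the difference was also taken within each pair. For Cxcl11 the log2 difference was -0.72, -0.74 and -0.99 in pairs 1, 2 and 3. For Ccl5 it was -0.55, -0.69 and -1.06, and for Cxcl10 -0.34, -0.30 and -0.67. For Cxcl1 it was -0.27, -0.31 and -0.47, and for Ccl2 -0.11, -0.14 and -0.32. The most negative value thus came from pair 3 for all 5 genes. Pair 3 was also the pair in which other transcripts were low on the array labelled VCAM1 shRNA, which had the fewest detected features (72.9%, against 77.9% to 84.6% on the other arrays). The median log2 difference of the 2718 bright features was 0.15, 0.17 and -0.24 in pairs 1, 2 and 3, and 89.6% of them were lower in pair 3. Without array 3 labelled VCAM1 shRNA the log2 fold changes were -0.74 for Cxcl11, -0.60 for Ccl5, -0.31 for Cxcl1, -0.28 for Cxcl10 and 0.011 for Ccl2.

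Measured from that median of each pair, the 3 pairs lay closer together for the interferon-driven genes. The values were -0.88, -0.91 and -0.75 for Cxcl11, -0.70, -0.85 and -0.82 for Ccl5, and -0.50, -0.47 and -0.43 for Cxcl10. Their SD over the pairs came to 0.085, 0.079 and 0.034, against 0.15, 0.26 and 0.20 before. For Cxcl1 the values were -0.42, -0.48 and -0.23, and for Ccl2 -0.27, -0.31 and -0.076, with SDs of 0.13 and 0.12, against 0.11 for both before. With every array centred on its median of bright features, 4 of the 5 genes had groups without overlap, all except Ccl2 (3.29% of all features, lower on the arrays labelled VCAM1 shRNA). Cxcl10 then stood at 2.67, 3.28 and 2.68 times the array's bright median on the control arrays and at 1.89, 2.39 and 1.98 times on the others. This centring was chosen after seeing the data. Groups of 4 of the 5 genes were also without overlap after quantile normalization, against 4.95% of all features in the same direction. The same held with normexp background correction on the uncorrected spot median, against 4.9% of all features. As scaled, the share was higher among features above 200 (3.94%) than among all features (2.06%). For the centring and these other settings it was not counted among features above 200.

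**Figure D3:**
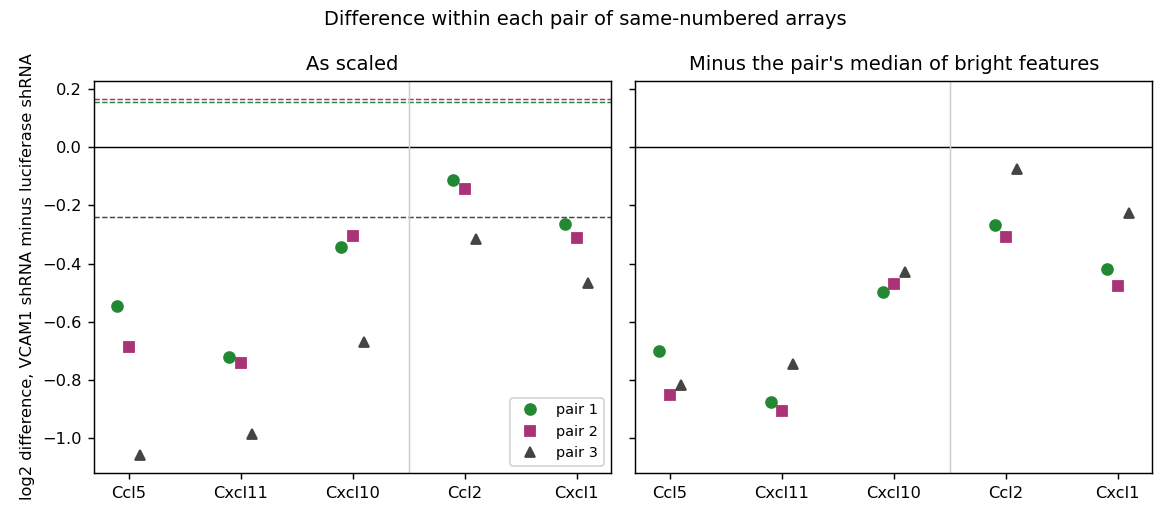
log2 difference (y axis) of each gene within pairs 1, 2 and 3 (circles, squares and triangles), as scaled on the left and after subtracting the pair's median of bright features on the right; dashed lines on the left mark those medians, at 0.15, 0.17 and -0.24. On the left pair 3 is the lowest for all 5 genes, while on the right it is the lowest for none and lies between the other pairs for Ccl5.

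The classes were then compared within arrays, where a constant factor on all signals of an array drops out. A shift that varies with brightness does not. The mean log2 difference of the 3 interferon-driven genes was -0.54, -0.58 and -0.90 in pairs 1, 2 and 3, with a mean of -0.67. For the 2 NF-kB-driven genes it was -0.19, -0.23 and -0.39, with a mean of -0.27. The former minus the latter was -0.35, -0.35 and -0.51, with a mean of -0.40 ± 0.095 (SD, n = 3 pairs). The mean of the interferon-driven genes thus lay further below the control level than that of the NF-kB-driven ones in every pair. After quantile normalization the differences between the class means were -0.35, -0.26 and -0.52, and with normexp on the uncorrected spot median -0.32, -0.23 and -0.49. With normexp on the local background they were -0.10, -0.28 and -1.52, with a mean of -0.63 ± 0.77 (SD, n = 3 pairs). The spread between pairs was then larger than the mean. The choice of the genes used this difference, so no test is given.

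Each interferon-driven gene was also divided by each NF-kB-driven gene, which made 6 ratios in 3 pairs. In 17 of the 18 cases the ratio was lower on the array labelled VCAM1 shRNA. The ratios share genes, so these cases are not separate observations. The log2 difference of Cxcl11 over Ccl2 was the steadiest, at -0.61, -0.60 and -0.67, followed by Cxcl11 over Cxcl1 at -0.46, -0.43 and -0.52. Ccl5 over Ccl2 differed by -0.43, -0.54 and -0.74, and Ccl5 over Cxcl1 by -0.28, -0.37 and -0.59. Cxcl10 stood between the classes. Its ratio to Ccl2 differed by -0.23, -0.16 and -0.35, and its ratio to Cxcl1 by -0.077, 0.0072 and -0.20, with a mean of -0.091 ± 0.11 (SD, n = 3 pairs), which is within the spread between pairs. As scaled, the difference between the classes was thus larger for Cxcl11 and Ccl5, both of which the study had listed as lowered. Cxcl10 was lower relative to Ccl2 in all 3 pairs, but did not part from Cxcl1.

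**Figure D4:**
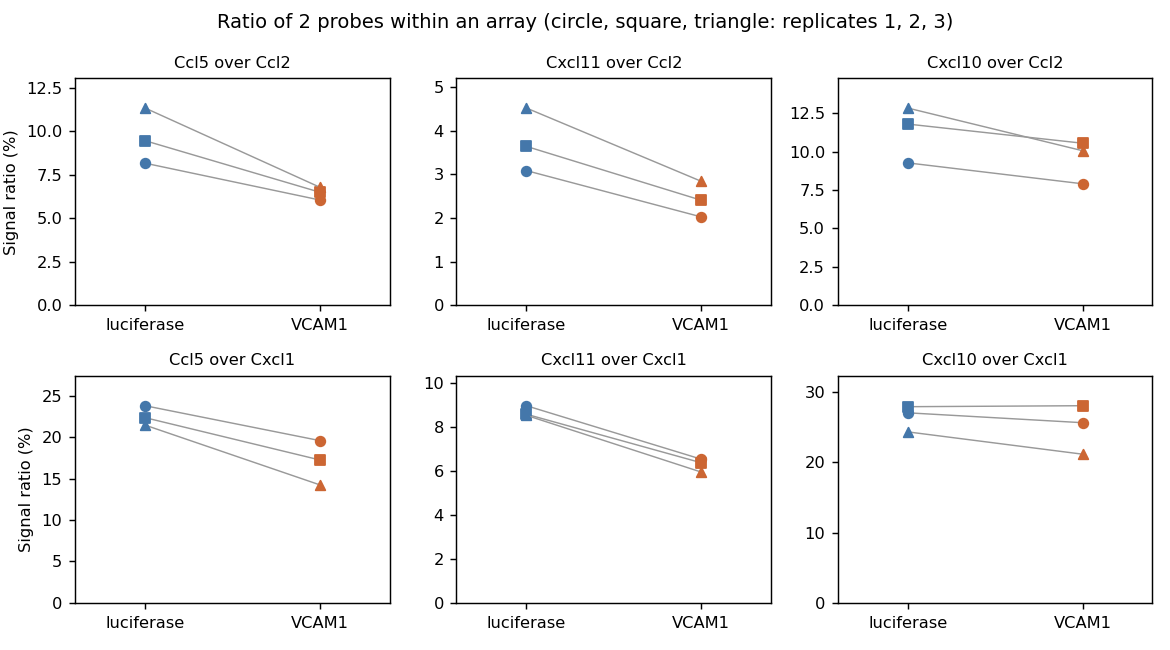
Signal ratio of 2 probes within an array (y axis, in %) on control arrays (blue) and arrays labelled VCAM1 shRNA (orange), with lines joining same-numbered arrays; the height of a ratio depends on the probes, so only its difference between groups is read. The lines run downwards in 17 of 18 cases, the exception being Cxcl10 over Cxcl1 in pair 2.

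How the 5 genes varied between cultures of the same group was also described. As scaled, array 2 was the highest of its group for all 5 genes in both groups. With every array centred on its median of bright features, this held in both groups only for Ccl5 and Cxcl10. The share of all features for which it held was not counted, so nothing about these genes in particular is read from it. As deviations from the group mean of log2 signal, Cxcl11 and Cxcl10 had a Pearson r of 0.97 over the 6 arrays, Cxcl11 and Cxcl1 also 0.97, and Ccl5 and Cxcl10 0.95. The lowest of the 10 gene pairs was Ccl2 with Cxcl1, at 0.38. These arrays share a pairing and a scaling, and 6 values give only a description. No r between other features was set beside these values. A further ordering used the log2 signals of all 6 arrays without subtracting group means. Its r values include the difference between the groups, known when the genes were chosen, so they do not measure variation within groups alone. When the 14201 other features detected on all 6 arrays were ordered by their r with the mean log2 signal of the interferon-driven genes, Cxcl1 was number 86 (r = 0.92) and Ccl2 number 904 (r = 0.67). The first feature was ENSRNOG00000000824 (r = 0.998), which has no gene name here. Against the mean of Ccl2 and Cxcl1, Cxcl10 was number 9 of 14202 features (r = 0.98), ahead of Ccl5 at number 219 and Cxcl11 at number 509.

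The deposited files also give the brightness around each spot, which was not used in the deposited signals. For the 5 genes this local background ranged from 5.33% to 89.8% of the spot's own median, and for the bright Ccl2 spot it was at least 52.0% on every array. Where it was used in the background correction, the log2 fold change of Ccl2 went from -0.19 to 0.32 and that of Cxcl11 from -0.82 to -0.61, while those of Cxcl10 and Cxcl1 went to -0.73 and -0.54. The highest spot median of the 5 genes was 29501 scanner units, for Ccl2. The brightest spot of an array, control spots included, had between 48815 and 62583. Whether bright spots came near the scanner's limit was not tested. The part of the local background in the differences was not tested.

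**Figure D5:**
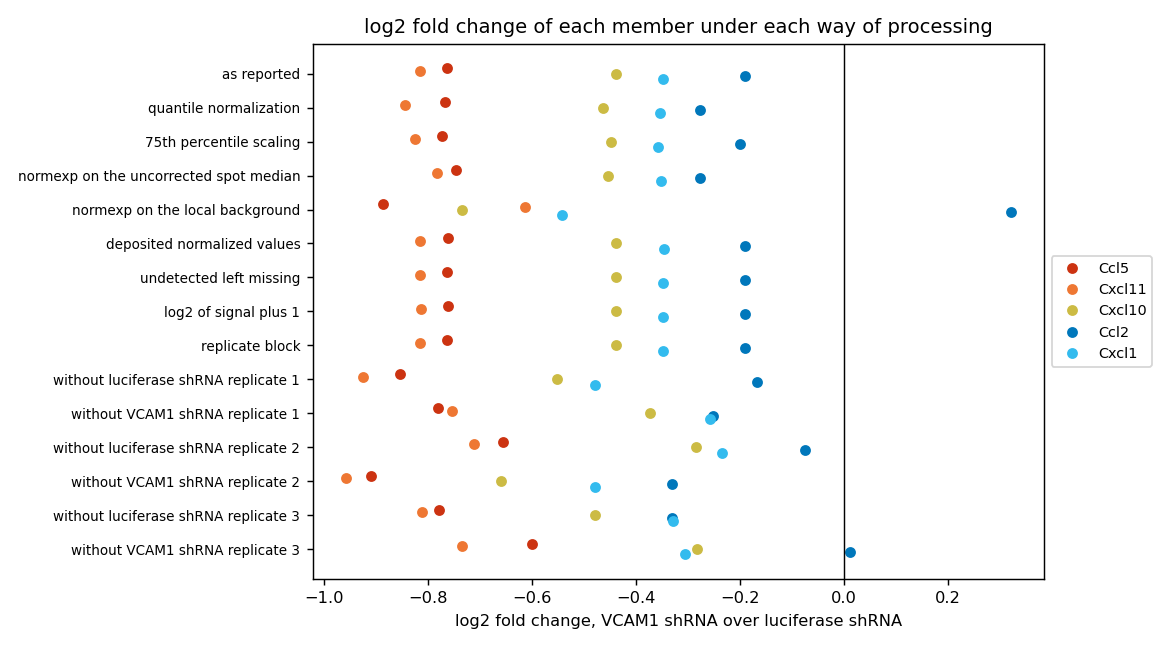
log2 fold change (x axis) of each gene under each way of processing and with each array left out (y axis). Cxcl11 and Ccl5 have the 2 most negative values in every row except the one with the local background, where Cxcl10 is lower than Cxcl11, and Ccl2 is above 0 in that row (0.32) and without VCAM1 shRNA array 3 (0.011).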

How the data were processed

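Total RNA of 6 rat cultures was labelled with Cy5 and hybridized to Toray 3D-Gene chips (rat oligo chip 20k). The authors deposited the scanner's intensity values (spot and local background medians, not normalized) and a table of intensities after background subtraction and global normalization, linear, with a median of 25 on each array. Software and build are not given in the sources used here.

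From the spot medians the mean of the 5808 blank spots (without the lowest and highest 5%) was subtracted. Features more than 2 SD above it were called detected, scaled to a median of 25 and log2-transformed, and undetected ones were set to the array's lowest detected signal. The largest difference from a deposited signal was 0.163%. Control spots were left out, and each feature has 1 spot. Between 14701 and 17069 features were detected per array, and the number of arrays limits the precision.

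Features detected on at least 3 arrays were fitted with limma 3.58.1 (lmFit, eBayes; R 4.3.3) and adjusted by Benjamini-Hochberg at 0.05, a step tested on simulated data. Nothing says that cultures came from separate animals, so errors measure the spread between these samples. Across features, how far an array lay from its group mean correlated at 0.70, 0.63 and 0.50 between arrays 1, 2 and 3 of both groups, so the label numbers pair the arrays. The other tools were Python 3.11.15, numpy 2.4.6, pandas 2.3.3 and matplotlib 3.10.9.

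The 5 genes, the lists and the alternatives were chosen with earlier results of these data known. Named were the 5 genes and, by correlation, the features most like them. Of 20174 array identifiers 0 were found in the reference gene table, so the names of the 5 genes are those given with the choice, and the lists of other chemokines, receptors, interferon and NF-kB genes and cell type markers were not looked up.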

Additional observations from a re-analysis of the deposited data

How the results depend on the processing

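Values under other ways of processing are log2 fold changes. Over 8 alternatives the mean of the interferon-driven genes lay between -0.74 and -0.66, and with 1 array left out between -0.84 and -0.54. The difference between the classes stayed negative, between -0.45 and -0.36 with 1 array left out. Among the alternatives only quantile normalization and normexp moved it from -0.40, as the others can hardly alter it. Normexp on the local background moved Cxcl11 to -0.61, Cxcl10 to -0.73, Ccl2 to 0.32, Cxcl1 to -0.54, the mean of the NF-kB-driven genes to -0.11 and the difference between the classes to -0.63, and left 3 of 5 genes lower in all 3 pairs. With 1 array left out, Ccl5 lay between -0.91 and -0.60 and Cxcl11 between -0.96 and -0.71. The extremes of the rest follow. Cxcl10 was -0.66 without array 2 labelled VCAM1 shRNA, and -0.28 without array 3 of that group or control array 2. Cxcl1 was -0.48 without control array 1 or array 2 labelled VCAM1 shRNA, and -0.23 without control array 2. Ccl2 was -0.074 without control array 2, -0.33 without control array 3 or array 2 labelled VCAM1 shRNA, and 0.011 without array 3 labelled VCAM1 shRNA. The NF-kB-driven mean was -0.15 without control array 2 or array 3 labelled VCAM1 shRNA, and -0.40 without array 2 labelled VCAM1 shRNA.

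Groups without overlap were found for 2 of 5 genes, against 2.06% of all features in the same direction. They were found for 4 with centring on bright features (3.29% of all features), normexp on the uncorrected spot median (4.9%) or quantile normalization (4.95%). Shares among features above 200 were not counted in these settings. Features with an adjusted p below 0.05 numbered 3 with normexp on the uncorrected spot median and 20 under a replicate block, which left every fold change as it was, and 0 otherwise. None of the 5 genes was among them (0). Unadjusted, 284 features became 650 after quantile normalization, 839 by normexp on the uncorrected spot median and 876 under the replicate block. The share of lower ones was 34.2%, and 58.2%, 60.4% and 24.3% in those 3 settings. With 1 array left out they were between 165 (without control array 2) and 1359 (without array 3 labelled VCAM1 shRNA, of which 4.78% were lower, with a median over all features of 0.25), with 182 without array 2 labelled VCAM1 shRNA. What caused these changes was not tested. The overlap of groups and the centring were added after seeing the data.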
